A study of Mus musculus with 14 samples.

Results

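Liver was compared with heart, muscle, lung, white adipose tissue (WAT) and kidney by the poly(A) sites its transcripts use, the positions at which a transcript is cleaved and given its poly(A) tail. Liver was represented by 2 of the 14 mouse libraries of the series, 1 wild type and 1 miR-22 knockout, and the other 5 tissues by 10 libraries, again 1 wild type and 1 miR-22 knockout for each tissue. All mice carry the genetic background 129S5/SvEvBrd in the labels. Libraries of mouse embryonic stem cells (mESC) and of 3T3, a mouse fibroblast line, were left out of the comparison. 3P-seq, the method used, profiles poly(A) positions genome-wide by counting tags that end at the junction of transcript and poly(A) tail. By the series' design text there are no biological replicates, and neither the animals behind the libraries nor their ages are stated. Each tissue's 2 libraries, wild type and knockout, therefore served in place of replicates in a model with a genotype term, and the p-values measure the spread between these libraries, not between animals of 1 genotype.

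The liver is made up mainly of hepatocytes, which are known for secreting most proteins of the blood plasma and for the enzymes that process lipids, amino acids, bile acids and foreign compounds. A gene's transcripts can end at several poly(A) sites, and use of a site nearer to the start of the gene (proximal) gives a shorter transcript than use of the farther one (distal). Where both sites lie in the last exon, this choice sets how much of the 3′ UTR, with its sites for miRNAs and RNA-binding proteins, a transcript keeps. The deposited lists give positions on mm9 and no gene names, and the annotation at hand is GRCm38.p6, another build. Sites are therefore named by chromosome, start, end and strand on mm9, counted from 1. The hepatocyte markers Apoa2, Fgb, Mug1 and Alb were not located, so the liver label was not checked against them. The miR-22 locus was not located either, so the knockout label was not checked. No sequence around the sites was read, since no mm9 genome was used here.

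Merging the lists of all 14 libraries gave 159969 sites. Liver tags fell on 77326 of these, against 53852 in muscle, 71463 in heart, 72363 in WAT, 84622 in kidney and 103843 in lung. Of the 77326 liver sites, 8562 had no tag in another tissue library, and 3248 of them had tags in both liver libraries. These counts come before the filter on low counts and depend on depth. Matching counts were not made for the other tissues, so nothing particular to liver is read from them. The liver libraries held 4202040 tags in wild type and 3347910 in knockout, within the range of 2036838 to 6010465 over the tissues. Mitochondrial sites took 5.66% and 5.5% of the liver tags and between 3.52% and 31.3% in the other libraries. After the filter on low counts, 23856 sites were tested, and 21601 of them had liver tags. Values below are CPM, the counts of tags at tested sites scaled to 1000000 after TMM normalization. Each site has its own value, with no correction for transcript length, because a tag marks an end and not a stretch of transcript.

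Liver differed from the other tissues at many sites. Against the mean of the other 5 tissues, 3302 sites were higher in liver, which was 13.8% of the sites tested. A further 2356 sites were lower, which was 9.88%. A call required an adjusted p under 0.05 by edgeR's quasi-likelihood test, with Benjamini-Hochberg adjustment over all tested sites, and a 4-fold difference. Both liver libraries lay above all 10 others at 2255 of the sites called higher and below all 10 others at 1309 of those called lower. The same libraries made the calls, so these 2 counts describe the calls, and the numbers over all tested sites are not given. The median log2 difference was 4.43 among sites called higher, -3.26 among sites called lower and -0.09 over all tested sites. Scaling by library totals in place of TMM moved the median over all sites to -0.23 and gave 3107 sites higher and 2603 lower. In bulk tissue, fewer cells of a type and less RNA per cell cannot be told apart at any of these sites.

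The calls followed the level of a site in liver. Of 142 sites at 1000 CPM or more in liver, 111 were called higher and 1 was called lower. Of 1226 sites from 100 to 1000 CPM, 521 were called higher and 6 lower. Among 5801 sites under 1 CPM, 27 were higher and 1615 lower. The level in liver is part of the difference tested, so these counts describe where the calls lie and are not a separate result. By chromosome, the share called higher ran from 9.22% of 1877 sites on chromosome 11 and 9.73% of 627 on chromosome X to 18.7% of 878 on chromosome 19, leaving out the mitochondrial chromosome and chromosome Y with 49 and 6 tested sites.

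A large part of all liver transcripts ended at the sites called higher. These sites held 58.3% of the tags of wild-type liver and 58% of knockout liver. In kidney the same sites held 16% and 17.3%, in WAT 9.23% and 9.96%, and in lung 7.51% and 6.9% (wild type and knockout). Heart had 1.95% and 1.98%, and muscle 1.1% and 1.16%. The sites were chosen on these same libraries, so the shares describe the calls. The 2 liver libraries were close to each other: of 2401 sites at 50 CPM or more, 2259 lay within 2-fold between wild type and knockout, and 15 differed by over 4-fold.

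The most abundant site of liver was chr5:90905483-90905626 (+). It had 46026 CPM in wild-type and 35245 CPM in knockout liver, a mean of 40636 ± 7623 CPM (SD, n = 2). The 10 other libraries had between 0 and 323.0 CPM with a median of 1.33 CPM, and the lower liver library exceeded the highest of them, knockout kidney, by 109.1-fold. The site chr7:20281590-20282486 (-) was also among the most abundant, at 32328 and 21206 CPM, but it was shared with other tissues. WAT had 5661 and 10293 CPM there, heart 1044 and 716.6 CPM, and the other 6 libraries between 246.2 and 631.2 CPM. It was called higher in liver by 4.99 ± 0.27 on the log2 scale (SE; edgeR adjusted p = 1.47e-24).

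Of the 10 most abundant liver sites, 8 were nuclear, and all 8 were called higher. These 8 sites held 14.6% of the tested tags in wild-type and 12.9% in knockout liver, against between 0.0137% and 1.28% in the other libraries, with knockout WAT the highest. The site chr18:20832206-20832382 (+) had 23406 and 17736 CPM in liver and 620.5 and 610.4 CPM in kidney, and at most 7.41 CPM in the other 8 libraries. The site chr11:108275563-108275724 (+) had 11135 and 11367 CPM in liver, and its highest other library, knockout kidney, had 123.6 CPM. The site chr16:22899211-22899541 (+) had 12039 and 10163 CPM in liver against at most 80.7 CPM. The other 2 of the 10 were mitochondrial. The mitochondrial site chrM:2135-4807 (+) had 31118 and 30397 CPM in liver and between 8744 and 195500 CPM elsewhere, and chrM:14116-15287 (+) had 13015 and 10480 CPM against 6139 to 83609 CPM. Neither was called, since the log2 differences were -0.81 and -1.41.

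The 20 sites of largest difference, among those with at least 50 CPM in liver and both liver libraries above the other 10, lay on 12 chromosomes and had liver means from 812.9 to 40636 CPM. The first was chr1:173156278-173156516 (+), with 17281 and 11939 CPM in wild-type and knockout liver. Heart and muscle had 0 there, and the highest other library, knockout kidney, had 91.2 CPM. The second was chr3:82846151-82846523 (-), with 11769 and 11101 CPM in liver against at most 61.5 CPM, a 180.4-fold gap between the lower liver library and the highest other. The third was chr6:121838952-121839073 (+), with 10064 and 16006 CPM against at most 75 CPM.

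**Figure D1:**
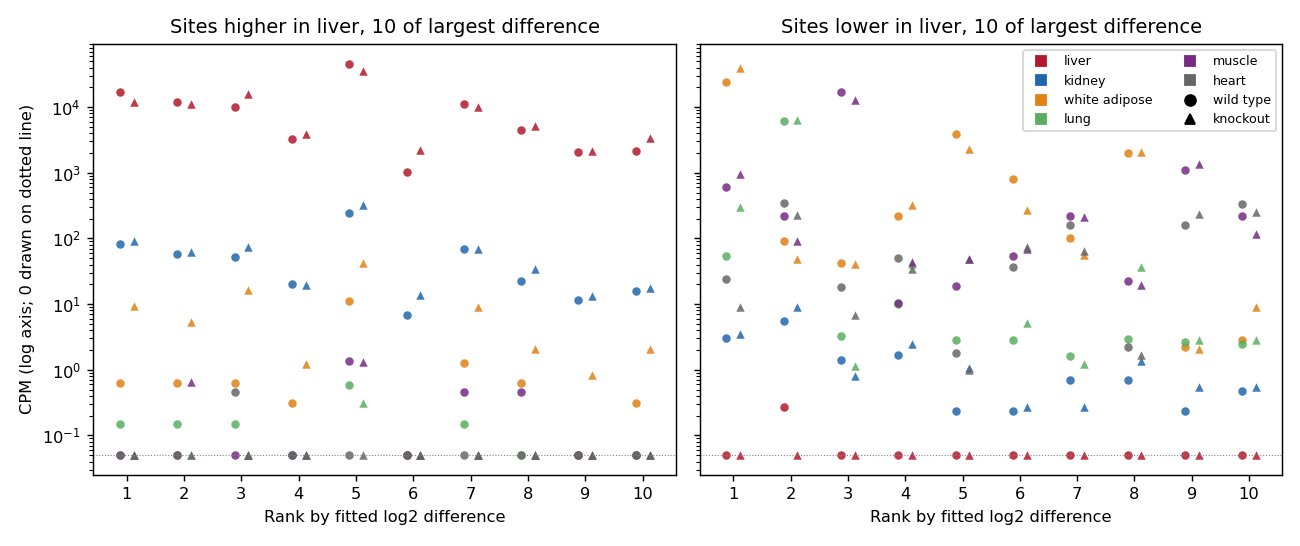
Level of the 10 sites of largest difference in each direction, in CPM on a log axis, with 1 point for each of the 12 libraries (circles wild type, triangles knockout) and values of 0 drawn on the dotted line. By the rule that chose the sites, both liver libraries lie above the other 10 on the left and below them on the right. On the right, kidney is often the nearest tissue.

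Further sites of this group were less abundant. The site chr12:82054175-82054247 (-) had 3250 and 3834 CPM in liver and at most 19.9 CPM elsewhere. The site chr13:4456503-4456699 (+) had 4446 and 5208 CPM against at most 33.7 CPM, and chr17:12612056-12612249 (+) had 8182 and 6922 CPM against at most 49.1 CPM. At chr6:141635006-141635164 (+) the liver libraries differed from each other, at 1043 CPM in wild type and 2211 CPM in knockout, and kidney also differed, at 6.86 and 14 CPM, while the other 8 libraries had 0. The fitted log2 differences of the 20 sites ran from 12.92 to 14.83, with a largest edgeR adjusted p of 1.22e-32. Several of the compared tissues had 0 tags at these sites, so the fitted size depends on the prior count and is not a bound; the ratio to the highest other library is the measured gap. That ratio was lowest at chr6:141635006-141635164 (+), at 74.3, and highest at chr3:146294148-146294441 (+), at 230.4.

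At all 20 of these sites the highest other library was a kidney library. The level in wild-type kidney was between 0.348% and 0.643% of the liver mean, with a median of 0.518%, and in knockout kidney between 0.418% and 0.863%, with a median of 0.628%. Knockout WAT held a median of 0.0459% of the liver level, and wild-type heart had 0 tags at 19 of the 20 sites. The part of RNA from another tissue or library in these low kidney levels was not tested.

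The 20 sites were chosen for the size of their difference, which keeps the other libraries low there, so these low levels are not a separate result. The choice sets no lower limit, and the narrow range of the kidney levels was not tested. Over the 741 sites called higher with at least 50 CPM in liver and both liver libraries above the others, the median level was 5.95% of liver in wild-type and 6.66% in knockout kidney, with quartiles from 0.836% to 27.8% and from 0.968% to 24.4%. The medians of the other 8 libraries lay between 0.572% in wild-type muscle and 1.48% in knockout WAT. A kidney library was the highest of the other 10 at 216 sites for wild type and 263 for knockout.

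**Figure D2:**
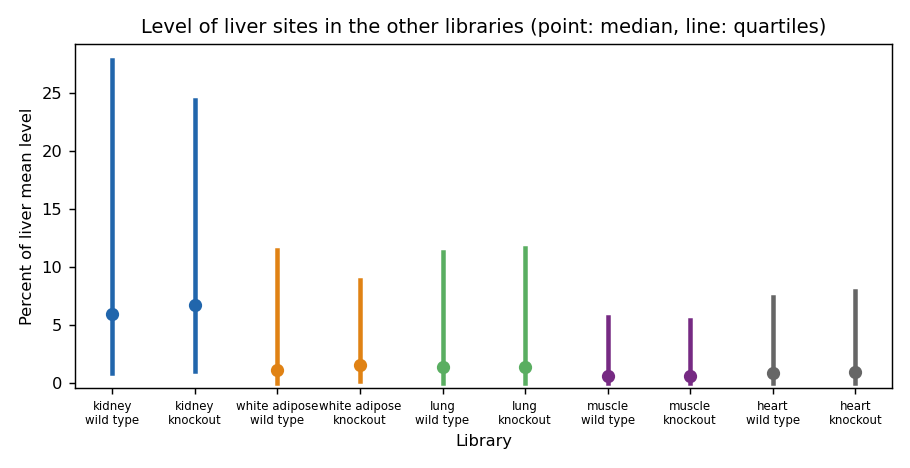
Level of the 741 liver sites in each of the 10 other libraries, as a percentage of the mean of both liver libraries, with points for medians and lines from the lower to the upper quartile. The kidney medians are 5.95% and 6.66%, while the other 8 medians lie between 0.572% and 1.48%.

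The comparison with kidney gave the fewest calls of the 5 single tissues. In the same fit, liver against kidney alone gave 2297 sites higher, 9.63% of those tested, and 2885 lower, 12.1%. Against muscle alone the counts were 4405 higher (18.5%) and 3363 lower (14.1%), and against lung 3631 higher (15.2%) and 4407 lower (18.5%). Against heart they were 3702 (15.5%) and 3783 (15.9%), and against WAT 3551 (14.9%) and 3490 (14.6%). These comparisons share the liver libraries, and the differences between their counts were not tested.

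**Figure D3:**
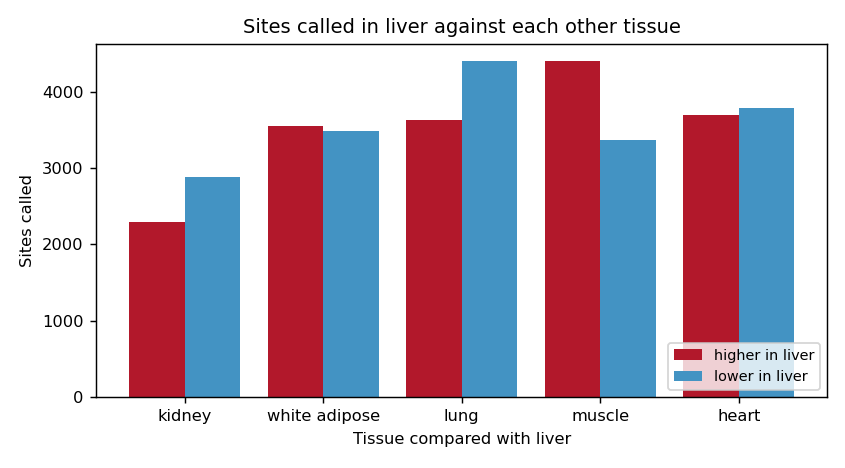
Number of the 23856 tested sites called higher (red) and lower (blue) in liver against each other tissue alone, at an edgeR adjusted p under 0.05 and 4-fold. Kidney has the fewest calls in both directions, 2297 and 2885.

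Of the 3302 sites called higher against the mean of the other 5 tissues, 1400, or 42.4%, were also called higher against each of the 5 alone. A further 1017 were called against exactly 4, and at 691 of these the exception was kidney. Lung was the exception at 111 sites, WAT at 118, heart at 53 and muscle at 44. Of the 2356 sites called lower, 394 (16.7%) were called lower against each tissue alone, and kidney was the exception at 444 of the 746 sites called against exactly 4. A site not called against kidney is not shown to be equal in liver and kidney.

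Among the sites higher in liver than in each of the other 4 tissues but not called against kidney, 183 had at least 50 CPM in liver, and at 47 of them the kidney mean was above the liver mean. The most abundant was chr15:3229945-3230506 (+), with 6422 and 5210 CPM in liver and 2805 and 2153 CPM in kidney. The next was chr13:62966102-62966312 (-), with 5102 and 4632 CPM in liver, 3809 and 2721 CPM in kidney and a median of 3.33 CPM over the 10 other libraries. Its log2 difference was 8.69 against the mean of the 5 tissues (edgeR adjusted p = 3.59e-33) and 0.58 against kidney (adjusted p = 0.368). At chr4:96295447-96295494 (-) kidney had 2491 and 1087 CPM and liver 1376 and 1060 CPM, with a median of 0 CPM over the 10 libraries. The last 2 of these sites were near 0 in several of the other tissues.

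The places of the sites higher in liver were described by joining neighbours, which can also join several poly(A) sites of 1 transcript. Joining neighbours no more than 50000 nt apart on either strand, a distance chosen after the data were seen, the 741 sites formed 551 groups, of which 426 were single sites and 6 held 5 or more. Of the 16 groups of 4 or more sites, 12 had every tested site in their span called higher, and in the other 4 the share called higher was as low as 60%. No such grouping was made of the other tested sites, so nothing particular to liver is read from it. The group of greatest liver level spanned chr5:90897506-90905860 and held 7 sites, all on the plus strand, with the most abundant liver site at its end. Its sites summed to 47409 CPM in wild-type and 36296 CPM in knockout liver, against at most 341.9 CPM in knockout kidney. All 10 tested sites in the span were called higher.

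The largest group by number, with 8 sites, spanned chr3:82818365-82846523, 6 on the plus and 2 on the minus strand. It held 4 of the 20 leading sites, and all 16 tested sites in the span were called higher. Its 8 sites summed to 31066 CPM in wild-type and 27548 CPM in knockout liver, against at most 171.9 CPM elsewhere. A group of 6 sites at chr9:46037889-46089685 summed to 19307 and 19403 CPM against at most 196.7 CPM, and all 10 tested sites there were called higher. A group of 4 sites at chr7:20256933-20282486, all on the minus strand, summed to 37402 and 25376 CPM in liver, and WAT was the highest other tissue, with 10309 CPM in knockout. Groups of 5 sites lay at chr10:127646921-127729914, chr4:104476735-104490046 and chr8:107580866-107617827, with sums of 2800 and 2015, 1978 and 1918, and 2066 and 1738 CPM in wild-type and knockout liver.

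Leading sites were set against the tested sites around them. Within 5000 nt on the same strand, 16 of the 20 leading sites had at least 1 other tested site, and 9 of these 16 held 95% or more of the tags of that window in both liver libraries. The other 7 include a pair of leading sites on chromosome 1. The site chr1:67277753-67277839 (+) held 73.3% of the window's tags in wild-type and 76.1% in knockout liver, and chr1:67277178-67277370 (+) upstream of it held 25.2% and 23%. On chromosome 3, chr3:82818769-82818985 (+) held 80.6% and 78.5% and its neighbour chr3:82818588-82818644 (+) 10.4% and 13%. At chr16:23081731-23081763 (+) the shares were 54.5% and 53.2%. The division between neighbouring sites was similar in both liver libraries at these places, while at chr3:146294148-146294441 (+) the share was 57.3% in the wild-type and 72.4% in the knockout library.

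Sites lower in liver reached 0 tags in many cases. Of the 2356 sites called lower, 501, or 21.3%, had no tag in either liver library, as had 2255 of all 23856 tested sites. The limit that a count of 0 allows over both libraries (3 tags) corresponds to 0.442 CPM. This limit covers counting error only. At 118 of the 1309 sites below all 10 others, liver had 0 tags and the lowest of the other libraries was under this limit. The 15 sites of largest difference, with at least 50 CPM in the mean of the other libraries and both liver libraries below all 10 of them, lay on 10 chromosomes, and 13 of them had 0 tags in liver. A kidney library was the lowest of the other 10 at 14 of the 15. At 7 of the 13 sites with 0 liver tags this lowest library was itself under the liver limit.

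The first of these, chr10:79355232-79355418 (+), had 23801 CPM in wild-type and 39003 CPM in knockout WAT, a median of 175.5 CPM over the other 10 libraries and 3.08 and 3.51 CPM in kidney. With 0 tags in liver, the mean of the 10 libraries was at least 14641-fold above the liver limit. The site chr7:51757066-51757152 (-) had 17028 and 13034 CPM in muscle and 0.809 CPM in its lowest library, knockout kidney, and was at least 6821-fold lower in liver than the mean of the 10. The site chr7:149630226-149630325 (+) was also highest in muscle, with 16233 and 13941 CPM, and at least 6836-fold lower in liver. These large values come from the tissue in which each site is high. At chr7:149630226-149630325 (+) the median over the 10 libraries was 1.09 CPM. Knockout heart (0.33 CPM) and wild-type kidney (0.237 CPM) were under the liver limit there, so a difference from them was not detectable.

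Others were spread over several tissues. The site chr1:40913650-40913751 (+) had 219.0 and 213.1 CPM in muscle, 160.8 and 65 CPM in heart, and 100.9 and 56.8 CPM in WAT. Lung had 1.62 and 1.24 CPM there and kidney 0.71 and 0.27 CPM, which is 3 tags and 1 tag. Liver, with 0 tags, was at least 185.2-fold below the mean of the 10, but knockout kidney was under the liver limit of 0.442 CPM, so a difference from kidney was not detectable at this depth. The site chr14:79688544-79688632 (-) had between 13 and 254.4 CPM in the 10 other libraries with a median of 48.7 CPM, and 0 and 0.319 CPM in liver. Its log2 difference was -8.36 ± 0.89 (SE; edgeR adjusted p = 3.56e-12). The site chr11:120590804-120591053 (-) was by far highest in lung, with 6073 and 6277 CPM. Heart had 345.5 and 223.7 CPM there, muscle 223.1 and 90.2 CPM, WAT 92.4 and 49.4 CPM, and kidney 5.44 and 9.17 CPM. Liver had 0.274 and 0 CPM, which is 1 tag in wild type.

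Use of neighbouring sites was compared next, to ask whether liver favours the proximal or the distal site of a tandem pair. Tandem pairs were neighbouring tested sites on the same strand 100 to 5000 nt apart, with at least 5% of the pair's tags at each site and at least 20 tags in at least 6 libraries. Whether the sites of a pair belong to 1 gene was not determined, so a pair can also hold the ends of neighbouring genes. A site could pass the filter on low counts through liver alone, so some pairs were tested only because liver is high there. Of 4252 pairs tested, 69 shifted toward the distal site in liver, 1.62% of the pairs, and 81 toward the proximal site, 1.9% (edgeR adjusted p under 0.05). Both liver libraries lay beyond the other 10 at 40 of the distal and 43 of the proximal shifts. This describes the called pairs, and the number over all tested pairs is not given. The calls rest on having both liver libraries: without the wild-type one, 17 distal and 16 proximal pairs were called, and without the knockout one 14 and 17, of which 32 and 31 pairs were called in the same direction as with both.

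A lean of liver over all pairs did not pass the test. The median share of tags at the distal site was 52% in wild-type and 52.5% in knockout liver, over the pairs with at least 20 tags in a library. The other 10 libraries ran from 48.5% in wild-type WAT to 56.2% in both lung libraries, so liver lay inside their range. The means were 52.3% ± 0.325 (SD, n = 2) and 52.2% ± 2.65 (SD, n = 10), with an exact two-sided permutation p of 0.97 over 66 splits, where 0.0152 is the smallest p these splits allow. The libraries of a tissue lay close together in some tissues, such as lung and WAT, and the splits treat them as exchangeable. With the tissue as the unit, an alternative added after the data were seen, the exact permutation p was 1 over 6 assignments, of which the smallest possible is 0.167. The sign of the difference depended on the pairs used, since over the pairs covered in all 12 libraries liver was lower by 1 percentage point (exact permutation p = 0.606).

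The sites of the called pairs were also looked up in the comparison of abundance. Over all 4252 pairs, 7.06% of the proximal and 7.17% of the distal sites were called higher, and 7.57% and 7.64% lower. Among the 69 distal shifts, the distal site was called higher in abundance at 33 and the proximal site lower at 7, and at 30 neither site was called in abundance. Among the 81 proximal shifts, the proximal site was called higher at 36 and the distal site lower at 12, and at 33 neither was called. A shift toward a site goes with a higher level there by construction, so these counts describe the called pairs and were not tested. The called pairs were farther apart than the tested pairs, with median distances of 1864 nt (distal) and 1697 nt (proximal) against 711 nt, a difference that was not tested.

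The distal shift of smallest p was on the minus strand of chromosome 11, at 120590804 and 120586737. Liver had 99.9% and 100% of the tags at the distal site, kidney 99.1% and 98.6%, and the remaining libraries 3.46% to 63.4%. Its proximal site was highest in lung, with 6073 and 6277 CPM, and its distal site was not called in abundance. Among the same pairs, the distal shift ranked next, with the same adjusted p, and the proximal shift of smallest p joined at 1 site. On the minus strand of chromosome 8, the sites at 108467490, 108463456 and 108459633 follow each other, and the middle one was at 201.8 CPM in liver and 1.26 CPM in the mean of the other libraries. Against the upstream site it took 97.8% of the pair's 914 tags in wild-type and 97.6% of 509 tags in knockout liver. In the other libraries this share was between 4.62% and 38.5%, with kidney highest, on pairs of 7 to 130 tags. Against the downstream site, the middle site left 7.93% and 7.96% to the distal position in liver, while the other libraries had 86.5% to 98% there. The log2 differences in the odds of distal use were 8.04 ± 0.54 and -8.20 ± 0.51 (SE; edgeR adjusted p = 1.09e-11 and 9.01e-12), and they share this middle site.

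The named pairs were chosen with both liver libraries beyond the other 10, so their separation follows from the choice. Some of them left a wide gap between liver and every other tissue. On the minus strand of chromosome 7, the distal site at 31727486 held 52% of the tags in wild-type and 48.8% in knockout liver, on 98 and 80 tags, and 0% in all 10 other libraries, on 47 to 191 tags. This distal site had no tags in the other 10 libraries, so it passed the filter and entered a pair through liver alone. The proximal site at 31731010 had 13 CPM in liver and a mean of 26.2 CPM elsewhere, and it was not called. On the plus strand of chromosome 11, the pair of 70336449 and 70341146 had 23% and 22.1% of its tags at the distal site in liver, 93.8% and 89.5% in kidney and 100% in the other 8 libraries. On the plus strand of chromosome 2, the pair of 25558845 and 25563236 had 33.6% in wild-type and 61.3% in knockout liver, so the liver libraries differed, and 92.9% or more elsewhere. The proximal sites of these chromosome 11 and 2 pairs had means of 0.209 and 0.054 CPM outside liver. In liver they had 23.8 and 16.6 CPM, and they too passed the filter through liver alone.

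Other pairs placed kidney beside liver. On the plus strand of chromosome 7, the pair of 51723125 and 51727020 had 6.33% and 5.97% at the distal site in liver and 9.71% and 11.4% in kidney, and between 93.1% and 100% in the other 8 libraries. On the plus strand of chromosome 11, the pair of 120435087 and 120438348 had 77.2% and 79.7% in liver, 52.9% and 45.9% in kidney and 0% in the other 8. In both pairs the kidney libraries were the nearest to liver.

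**Figure D4:**
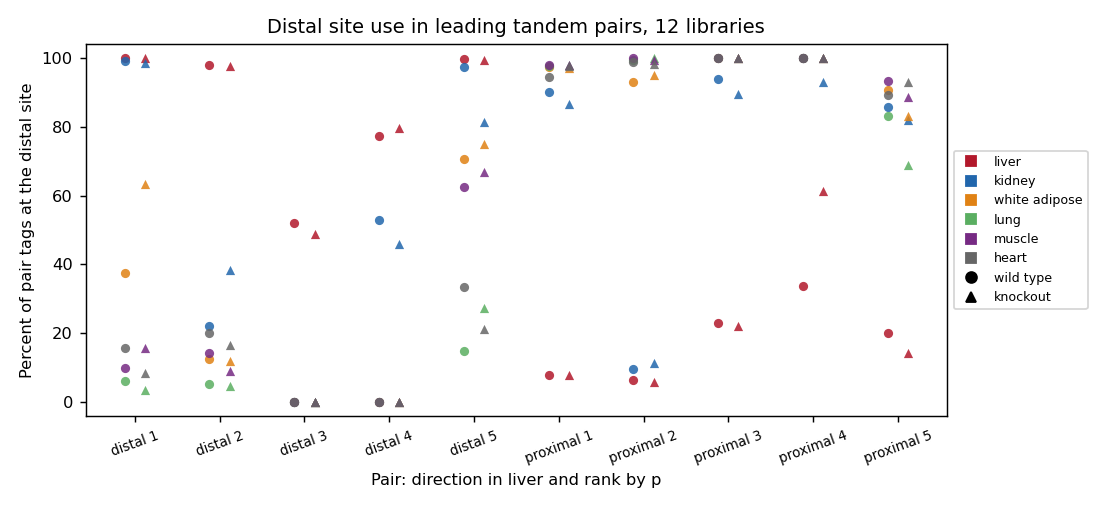
Share of each pair's tags at the distal site, in percent, for the 5 leading pairs per direction, with 1 point for each of the 12 libraries (circles wild type, triangles knockout). The pairs were chosen with both liver libraries beyond the other 10, so liver lies outside them at each pair by choice. At some pairs, such as the second proximal one (6.33% and 5.97% in liver, 9.71% and 11.4% in kidney), kidney lies next to liver.

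Not every called shift was large in percent. On the plus strand of chromosome 11, the pair of 54723544 and 54723877 had 92.2% and 88.2% of its tags at the distal site in liver and 93.5% to 99.8% elsewhere, on pairs of 735 tags or more in liver. Its distal site was called lower in liver, at 223.2 CPM against a mean of 4210 CPM, and kidney, with 16650 and 18230 CPM, carries much of that mean. The other 8 libraries had between 406.2 and 2049 CPM there, with a mean of 902.3 CPM. On the plus strand of chromosome 4, the pair of 155107891 and 155110259 had 0.648% and 0.636% at the distal site in liver and 1.97% to 18.8% elsewhere. Its call was lost when either liver library was left out (edgeR adjusted p = 0.103 without wild type and 0.137 without knockout).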

How the data were processed

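The labels describe 3P-seq of total RNA. The submitters' processing notes name CASAVA 1.7, Bowtie and the build mm9. The rule that turned reads into sites is not stated there. Each deposited list carries an estimated count of tags for every site, unscaled.

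Overlapping or touching intervals on the same strand were joined across all 14 libraries, and their values summed and rounded to whole numbers. A site's position is the 3′ end of its most abundant interval. Sites passing filterByExpr (tissue as group, minimum count 10) were scaled by TMM and fitted with edgeR 4.0.16 in R 4.3.3, with terms for tissue and genotype and 5 residual degrees of freedom; the contrast was liver minus the average of the 5 remaining tissues. Pairs were fitted with a term for each library and interactions of the distal site with tissue and genotype. The SE is the absolute log2 difference over the square root of the F statistic. On simulated counts with 200 of 23856 sites changed, 97% of 4-fold and 100% of 8-fold changes were recovered at the adjusted p. The 4-fold cutoff that a call also needs was not applied there, so this is not recovery by the calling rule. With 200 of 4252 pairs shifted, 60% of 4-fold and 83% of 8-fold changes in odds were recovered at the adjusted p. The changed sites averaged at least 20 tags a library and the shifted pairs at least 100, so sparser ones were not covered. All changes were increases in liver or shifts toward its distal site, with a common level or share in the other tissues. Tags carry no molecular identifiers, so limits from counts cover counting error only.

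Sites named are the 20 higher and 15 lower sites of largest difference past 50 CPM with both liver libraries beyond the other 10, the 10 most abundant, and up to 10 pairs per direction of smallest p; some are printed. Sites shared with kidney and the groups along chromosomes were chosen after their values were seen. The comparison, rules and lists were chosen with earlier results of these data known. The planned gene lists and markers, and the rule of 1 site per gene, were not applied: placing mm9 sites on the GRCm38.p6 annotation would convert coordinates between builds. An attempt at such a placement was made and dropped, and no result here uses it.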

Additional observations from a re-analysis of the deposited data

Results flagged for a closer look

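The leading liver site chr1:173156278-173156516 (+) had 52 tags in the mESC library, which is outside the comparison, above the limit of 3 tags that a count of 0 allows. The 3T3 library had 0 tags there. No group held the 4 to 10 samples that a search for single outlying libraries needs.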

How the results depend on the processing

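Of the 3302 higher and 2356 lower sites, the counts stayed within 1.5-fold under library totals, DESeq2 1.42.0 (2789 and 2207), no genotype term, both other ways of merging, leaving out mitochondrial sites and leaving out each other tissue. Without 1 liver library they ran from 3184 to 3242 higher and 1876 to 1911 lower. Where the filter changed, so did the number tested: with no filter 6600 of 147416 sites were higher, and with a minimum count of 30 1884 of 13224. At the adjusted p alone 5387 were higher and 3726 lower, and at 8-fold 1360 were lower. The 41 named sites kept direction and call in every setting in which they were followed, which leaves out merging up to 25 nt apart, except that 2 uncalled mitochondrial sites passed at the adjusted p alone. Against 69 distal and 81 proximal pairs, refits called 37 distal among pairs with 50 tags and 22 and 23 among pairs within 1000 nt. Leaving out muscle gave 44 and 48, lung 109 distal, and kidney 100 distal and 112 proximal. Without 1 liver library, 14 to 17 distal and 16 to 17 proximal pairs were called. The cause of these changes was not tested. The median distal share difference, 0.0915 percentage points, was 1.49 with 50 tags and -1 over pairs covered in all 12 libraries. With joining distances added after the data were seen, groups of 5 or more numbered 3 at 20000 nt and 8 at 100000 nt, against 6. The alternatives for gene lists were not run, since no list was located. The genotype term of the main fit pairs the libraries of a genotype across tissues; without this pairing 3310 sites were higher and 2392 lower, and 69 pairs distal and 77 proximal. Lone liver libraries were assumed to vary like the other tissues.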
